A study of Mus musculus with 20 samples.

Results

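Terminal oligopyrimidine (TOP) mRNAs outside the ribosome were examined in mouse livers with knockdown of HuR, an RNA-binding protein encoded by ELAVL1. The 10 genes were EEF1A1, EEF1B2, EEF1D, EEF1G, EEF2, TPT1, PABPC1, EIF3E, EIF3F and EIF4B. They were taken by symbol, ignoring case, and each was found in both deposited tables, among 60607 human genes listed for humanized mice and 55335 mouse genes listed for WT mice. The 77 RPL and RPS genes listed in each table, which encode the proteins of the large and small ribosomal subunits, served as the comparison.

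TOP mRNAs begin with a cytidine followed by a run of pyrimidines at their capped end. They encode ribosomal proteins and many translation factors, and a growing cell uses them to set how much translation machinery it makes. The kinase complex mTORC1 and the cap-binding protein LARP1 control their translation and stability together, so that they are commonly treated as a single regulated class. In hepatocytes, which export large amounts of plasma protein, this machinery is abundant.

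Humanized mice were TK-NOG mice, immune-deficient NOG animals that carry a herpes simplex thymidine kinase transgene under the mouse albumin promoter. Ganciclovir (25 mg/kg at 8 to 9 weeks of age) removed host hepatocytes that express the kinase, and primary human hepatocytes were then transplanted through the spleen. Animals whose serum human albumin exceeded 0.5 mg/ml, measured 8 to 12 weeks after transplantation, were used, and the liver cells other than hepatocytes stay those of the host. WT mice were male C57BL/6 mice, bought at 8 weeks of age and acclimatized for 10 to 14 days. The 4 humanized HuR KD and 6 WT HuR KD mice received an adenovirus with an shRNA to HuR, of human or mouse sequence respectively. The 4 humanized LacZ and 6 WT LacZ mice received the control virus at the same dose. Livers were collected 7 days later, after food had been withdrawn for 4 h, and their RNA was sequenced. Because host strain, shRNA and table go with the species, their parts in a difference between humanized and WT livers cannot be told apart.

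Levels were given as TPM, transcripts per 1000000, which account for gene length and add up to 1000000 in each liver. Reads per liver, recovered from the steps of the TPM values, ranged from 2670469 to 20302454 in humanized livers and from 1423985 to 44668272 in WT livers. The share of TPM from mitochondrial ribosomal RNA was 27.2 to 49.1% in humanized livers, with 49.1% in both HuR KD replicate 4 and LacZ replicate 2, the deepest libraries of that set. All mitochondrial genes, the protein-coding ones included, are listed at 0 in every WT liver, so that table gives no mitochondrial level. In WT livers, HuR KD replicate 6 (12960373 reads) and LacZ replicate 2 (1423985 reads) were the shallowest libraries. The targeted gene was lower in every knockdown liver than in every control of its set. Human ELAVL1 was at 61.0% and mouse Elavl1 at 51.7% of the control mean. In the limma comparison of HuR KD with LacZ described below, human ELAVL1 had a log2 fold change of −0.59 (unadjusted p = 0.00634, adjusted p = 0.214). It thus did not pass after adjustment, whereas mouse Elavl1 did, at −0.83 (adjusted p = 0.00105). All 6 hepatocyte markers sought were present in humanized livers. Of the human markers, 0 of 7 for macrophages, 0 of 6 for lymphocytes and 0 of 5 for endothelium reached a mean of 1 TPM there, while 1 of 5 for stellate cells and fibroblasts and 2 of 3 for bile ducts did. The summed duct markers spanned 4.23 to 19.1 TPM with HuR KD and 9.37 to 24.4 TPM with LacZ. In WT livers the summed macrophage markers spanned 350 to 589 TPM with HuR KD and 486 to 667 TPM with LacZ, and the lymphocyte markers 7.15 to 15.5 and 10.6 to 19.9 TPM. The part of these marker levels in the results was not tested. In such bulk samples, fewer cells of a type and less RNA per cell cannot be told apart.

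The motif that gives the class its name was sought in mouse promoters of RefSeq (build GRCm38.p6), as a C followed by at least 4 C or T. The search covered 10 bases before to 50 bases after each annotated start, on the strand of the gene only, and took the longest run. Of the 10 genes, 6 matched an entry of the promoter table, while Eef1d, Eef1g, Pabpc1 and Eif3e did not. The 6 windows below, each 29 bases long and written 5′ to 3′ on the gene's strand, show how far the pyrimidine runs differ in length and place. Capitals mark the longest run.
Eef1a1 (chr9:78481710-78481738, minus strand): ctggctccgCCCTCTTCCCgagggtgggg
Eif3f (chr7:108934404-108934432, plus strand): ttctaggCTCTCTCTCTTTCTCggcaaga
Eef2 (chr10:81176635-81176663, plus strand): acgtcagcggtCTCTTCCgccgcagccgc
Eif4b (chr15:102073772-102073800, plus strand): acgccgcgccaCCCCCTCgcgctgcttta
Tpt1 (chr14:75845277-75845305, plus strand): ggtgacgtagccgagcgtgCCCTCTatat
Eef1b2 (chr1:63176851-63176879, plus strand): tgcgtccgagcgCTTTCgttcaactccgg

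The run held 10 bases in Eef1a1 and 15 bases in Eif3f, where it spanned the annotated start. It held 5 to 7 bases in the other 4, where it lay downstream of that start. All 6 of 6 promoters of these genes held a run. So did 58.1% of all 32851 promoters of the same length. Of the 67 RPL and RPS promoters, 89.6% held a run, and 64.2% held a run of 8 bases or more, against 16.5% of all promoters and 2 of the 6 shown. These matches describe letters near an annotated start and are not mapped mRNA ends. The 10 mouse genes lie on 7 chromosomes in GENCODE M21 (GRCm38), with 4 of them on chromosome 15, namely Pabpc1 (36595661 to 36609668, minus strand), Eif3e (43250058 to 43282719, minus strand), Eef1d (75894205 to 75909556, minus strand) and Eif4b (102073773 to 102097173, plus strand).

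EEF1A1 (ENSG00000156508.18), which delivers aminoacyl-tRNA to the ribosome, was the most abundant of these mRNAs in humanized livers and made up 48.0 to 53.5% of the TPM of all 10. EEF2, which moves the ribosome along the mRNA, followed at 339 ± 31.6 TPM (SD, n = 4) in the controls, and TPT1, which encodes the translationally controlled tumor protein, at 169 ± 18.9 TPM (SD, n = 4). The order went on with EIF4B, PABPC1, EIF3E and EIF3F, at control means of 75.5, 38.4, 37.0 and 9.35 TPM. PABPC1 and EIF3E overlapped among the controls, at 34.5 to 45.4 TPM and 32.5 to 41.7 TPM, and the other neighbours in this order did not. Expressed as a share of the summed TPM of the RPL and RPS genes, the 10 genes together stood at 18.8 to 22.9% in humanized livers and at 38.9 to 44.0% in WT livers. The human sums hold few or no reads for EEF1B2, EEF1D and EEF1G and leave out reads given to copies of these genes. In addition, 6 human RPL and RPS genes lay below a mean of 1 TPM. The 2 shares are thus not read as a difference between species.

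The 3 subunits of the nucleotide exchange factor that recharges EEF1A1 had few or no reads in the human table. EEF1B2 had 0 to 14 recovered reads per liver, with a mean of 0.639 TPM in HuR KD and 0.362 TPM in LacZ livers. EEF1D had 1 to 37 reads, with means of 0.152 and 0.160 TPM, and EEF1G was listed at 0 in all 8 livers. Such values can come from how reads were assigned to overlapping or near-identical genes, which was not tested, and they are not evidence that these genes are silent in human hepatocytes. The mouse genes were read at 149 (Eef1b2), 26.4 (Eef1d) and 88.3 TPM (Eef1g) in WT controls. These 3 human genes did not reach a mean of 1 TPM and were not tested, which left 7 of the 10 in humanized livers and 10 of 10 in WT livers. Of the human RPL and RPS genes, 71 of 77 reached this level, against 77 of 77 in WT livers.

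Copies of several of these genes drew reads in the human table. The 39 listed processed pseudogenes of EEF1A1 added up to 31.3% of its level, with EEF1A1P5 highest at a mean of 175 TPM. Their sum was 181 ± 10.6 TPM (SD, n = 4) in HuR KD and 215 ± 33.1 TPM (SD, n = 4) in LacZ livers. Of the pseudogenes of EEF1B2, EEF1B2P3 had a mean of 14.5 TPM, above the gene itself. EIF3FP3 had a mean of 7.90 TPM over all humanized livers, beside EIF3F means of 7.48 TPM in HuR KD and 9.35 TPM in LacZ livers. The summed pseudogenes were 94.8% of the parent for EIF3F, 18.6% for EIF4B, 1.90% for PABPC1, 0.839% for TPT1 and 0.0264% for EIF3E. Reads from near-identical copies can be split between gene and pseudogene, so the human values of EEF1A1, EEF1B2, EIF3F and EIF4B carry this uncertainty.

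**Figure D1:**
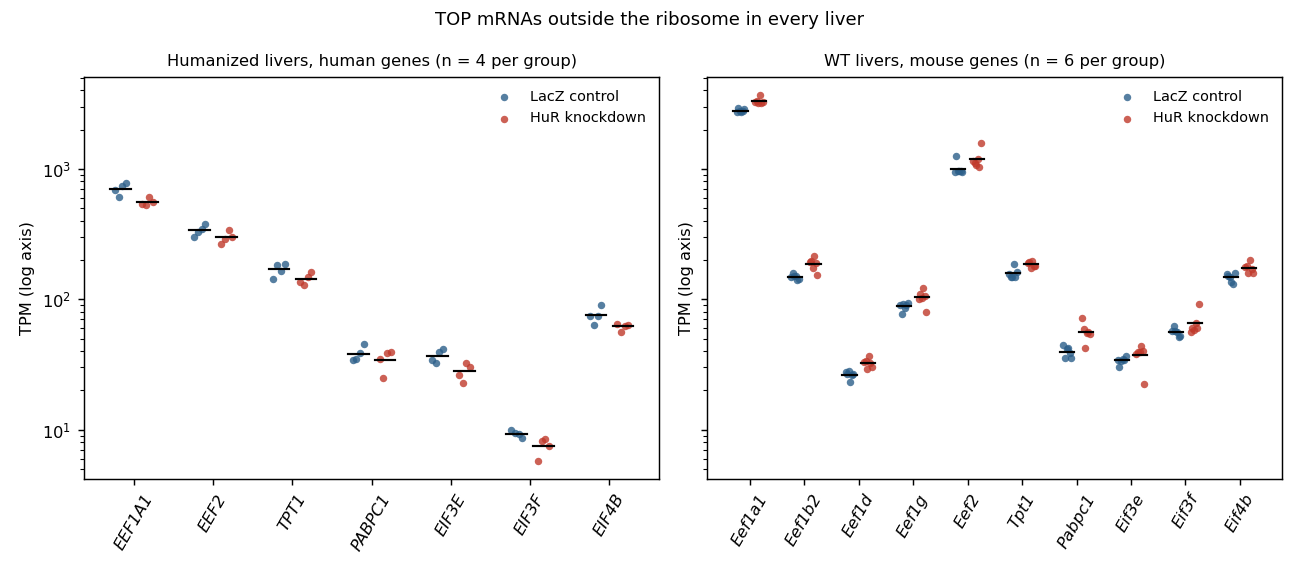
TPM (log axis) of each tested gene in every liver, with LacZ livers in blue, HuR KD livers in red and black bars at group means. Human EEF1A1 spans 526 to 612 TPM with HuR KD and 609 to 785 TPM with LacZ, and mouse Eef1a1 spans 3205 to 3654 TPM and 2732 to 2917 TPM.

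Whether these mRNAs differed with HuR KD in human hepatocytes was asked for the 7 tested genes. All 7 had a log2 fold change below 0, with a median of −0.27, beside 57.3% of all genes tested and an overall median of −0.05. EEF1A1 and EIF3E fell at an unadjusted p under 0.05, or 2 of 7, where 7.87% of all genes tested were called lower (11.5% in either direction). None of the 7 passed after Benjamini-Hochberg adjustment over 12738 genes, beside 27 genes (0.212%) in all. Fold changes are log2 differences on the log2(TPM + 1) scale from limma, which compares HuR KD with LacZ for every gene tested.

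EEF1A1 was at 542, 526, 612 and 557 TPM in HuR KD replicates 1 to 4 and at 690, 609, 733 and 785 TPM in LacZ replicates 1 to 4. Only HuR KD replicate 3 reached above the lowest control. EEF1A1 thus had a log2 fold change of −0.33 (SE 0.13, unadjusted p = 0.0335, adjusted p = 0.382 from limma), and the call did not hold under quantile scaling (−0.17, unadjusted p = 0.169), TPM over nuclear protein-coding genes (−0.24, unadjusted p = 0.0744), voom (−0.27, unadjusted p = 0.0571) or with no filter on TPM (−0.33, unadjusted p = 0.0563).

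EEF2 was at 266, 288, 339 and 301 TPM with HuR KD and at 302, 329, 346 and 378 TPM with LacZ. Again only HuR KD replicate 3 lay within the range of the controls. Its log2 fold change of −0.18 (SE 0.13, unadjusted p = 0.203, adjusted p = 0.663) did not pass.

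Among the initiation factors, EIF3E, a subunit of the complex that prepares the small ribosomal subunit, was at 26.3, 22.8, 32.7 and 30.2 TPM with HuR KD. In the controls it was at 34.3, 32.5, 39.6 and 41.7 TPM. HuR KD replicate 3 exceeded the lowest control by a small margin and the other 3 lay below all controls, with a log2 fold change of −0.40 (SE 0.15, unadjusted p = 0.0287, adjusted p = 0.364).

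EIF3F, another subunit of that complex, was at 5.78, 8.17, 8.47 and 7.50 TPM with HuR KD and at 9.92, 9.45, 9.31 and 8.71 TPM with LacZ. It was the only gene of the 7 whose HuR KD livers all lay below all controls, as did 5.03% of all genes tested. In limma the log2 fold change was −0.30 (SE 0.14, unadjusted p = 0.0666, adjusted p = 0.476). Because it missed the call, the separation of the groups and the test gave different answers for this gene.

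EIF4B, which stimulates the unwinding of mRNA leaders, was at 65.1, 56.0, 62.8 and 64.0 TPM with HuR KD and at 73.8, 63.6, 74.9 and 89.6 TPM with LacZ. LacZ replicate 2 alone lay within the HuR KD range. EIF4B had a log2 fold change of −0.27 (SE 0.14, unadjusted p = 0.0790, adjusted p = 0.502).

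PABPC1, which binds poly(A) tails, was at 35.1, 24.7, 39.0 and 39.2 TPM with HuR KD and at 34.5, 34.9, 38.6 and 45.4 TPM with LacZ. The groups largely overlapped, and HuR KD replicate 2 stood below all others. Its log2 fold change was −0.16 (SE 0.18, unadjusted p = 0.377, adjusted p = 0.785), and without HuR KD replicate 2 it was −0.02.

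TPT1 was at 136, 129, 147 and 161 TPM with HuR KD and at 144, 182, 166 and 185 TPM with LacZ. LacZ replicate 1 lay within the HuR KD range and the other 3 controls above it. Its log2 fold change of −0.24 (SE 0.14, unadjusted p = 0.114, adjusted p = 0.551) did not pass.

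The same livers stood at the edges for most of these genes. HuR KD replicate 2 was the lowest of its group for 5 of 7 genes and LacZ replicate 4 the highest of its group for 6 of 7. They had 3171015 and 3169425 reads, and with HuR KD replicate 1 (2670469 reads) they were the 3 shallowest humanized libraries. HuR KD replicate 3 was the highest of its group for 4 of 7.

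The 2 calls rested on few livers. The EEF1A1 call was lost without any of HuR KD replicates 1, 2 and 4 or LacZ replicates 1, 3 and 4, with log2 fold changes of −0.31, −0.30, −0.33, −0.34, −0.31 and −0.27 in that order. EIF3E lost its call without HuR KD replicate 1 (−0.37) or 2 (−0.31) or LacZ replicate 3 (−0.36) or 4 (−0.34). EIF3F was called only without HuR KD replicate 3 (−0.36) and was at −0.19 without HuR KD replicate 1. EIF4B was called without LacZ replicate 2 (−0.35), and with no filter on TPM (−0.27, unadjusted p = 0.0454). Without both libraries that were deepest and richest in mitochondrial ribosomal RNA, EEF1A1 was at −0.40 and EIF3E at −0.49, both still called, and EIF4B at −0.37 was called as well.

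The RPL and RPS genes of the same livers had a median log2 fold change of −0.30, with 70 of 71 below 0. Of these, 31 of 71 fell at an unadjusted p under 0.05 and 0 after adjustment, and 27 of 71 had HuR KD livers all below all controls. The count of 31 also depended on scaling and on single livers. It was 22 under median-of-ratios factors, 25 under quantile scaling and 14 of 74 with TPM over nuclear protein-coding genes. When a liver was left out it was 13 to 35. The ribosomal protein genes ranged from RPL26 at −0.70 (unadjusted p = 0.00300) to RPS28 at 0.08. The 7 TOP mRNAs outside the ribosome, from −0.40 to −0.16, thus lay inside the range of the ribosomal protein genes. Over all genes tested, 31.3% of the calls were higher, against 47.5% under median-of-ratios factors, 47.3% under quantile scaling and 47.2% with TPM over nuclear protein-coding genes. All 7 genes stayed below 0 under each of these scalings, with medians of −0.20, −0.17 and −0.17.

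In WT livers all 10 mouse mRNAs had a log2 fold change above 0, with a median of 0.24, beside 56.8% of all genes tested and an overall median of 0.03. At an unadjusted p under 0.05, 8 of 10 rose, where 9.09% of all genes tested were called higher (16.0% in either direction). The exceptions were Eif3e and Eif3f. None of the 10 passed after adjustment over 15090 genes, beside 134 genes (0.888%) in all, and the smallest adjusted p was 0.0545, for Pabpc1. That count was 4 of 10 at a mean TPM of at least 5, 3 under median-of-ratios factors, 2 under quantile scaling, 3 with TPM over nuclear protein-coding genes, 4 with voom, 8 with array weights, and 5 without HuR KD replicate 6 or 2 without HuR KD replicate 3. Over all genes tested the count rose as well, in the same order to 221 of 9554, 255 and 272 of 15090, 223 of 11677 and 530 of 15077. It was 1717 of 15090 with array weights, 371 of 15124 without HuR KD replicate 6 and 251 of 15089 without HuR KD replicate 3.

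Eef1a1 (ENSMUSG00000037742.14, chromosome 9, 78478449 to 78489151, minus strand) had a lowest, median and highest level of 3205, 3267 and 3654 TPM with HuR KD. With LacZ they were 2732, 2760 and 2917 TPM. All HuR KD livers lay above all controls, as did 1.25% of all genes tested, and the log2 fold change was 0.24 (SE 0.06, unadjusted p = 0.00170, adjusted p = 0.0800). The call was lost under quantile scaling, at 0.19 (unadjusted p = 0.0618). It was again the most abundant of the 10, with 58.1 to 63.5% of their summed TPM.

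The subunits of its exchange factor, below the filter in the human table, were measurable here. Eef1b2 ran from 154 over a median of 192 to 216 TPM with HuR KD and from 141 over 149 to 160 TPM with LacZ. HuR KD replicate 6 alone fell within the range of the controls, and the log2 fold change was 0.32 (SE 0.08, unadjusted p = 0.000930, adjusted p = 0.0615).

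Eef1d ran from 29.2 over 32.8 to 36.7 TPM with HuR KD and from 23.3 over 26.7 to 28.0 TPM with LacZ. Here the groups did not overlap, with a log2 fold change of 0.29 (SE 0.07, unadjusted p = 0.000795, adjusted p = 0.0580). Of its exon bases, 4.27% were shared with Naprt, an annotated gene on the same strand. Such shares were 6.95% for Eef1b2, with small RNA genes or predicted genes, and 4.33% for Eef1a1, with Gm26377.

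Eef1g ran from 79.2 over 105 to 121 TPM with HuR KD and from 77.6 over 90.3 to 92.9 TPM with LacZ. HuR KD replicate 6 lay near the lowest control and the other 5 HuR KD livers lay above all controls. The log2 fold change of 0.21 (SE 0.09, unadjusted p = 0.0312, adjusted p = 0.258) lost its call without HuR KD replicate 2 (0.20), 4 (0.17) or 5 (0.21) or LacZ replicate 2 (0.18) or 4 (0.21).

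Eef2 ran from 1041 over 1133 to 1577 TPM with HuR KD and from 940 over 961 to 1245 TPM with LacZ. The highest values were those of HuR KD replicate 6 and LacZ replicate 2, the shallowest library of each group, and the other 5 HuR KD livers lay above the other 5 controls. The log2 fold change was 0.24 (SE 0.11, unadjusted p = 0.0416, adjusted p = 0.291). It lost its call without HuR KD replicate 1 (0.25), 4 (0.24) or 6 (0.16), or any of LacZ replicates 1, 3, 4, 5 and 6 (0.23 each), and was 0.31 without LacZ replicate 2. It was also lost under median-of-ratios factors (0.23, unadjusted p = 0.0971) and quantile scaling (0.20, unadjusted p = 0.0798), and with no filter on TPM (0.24, unadjusted p = 0.0514).

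Of the initiation factors, Eif4b ran from 160 over 174 to 200 TPM with HuR KD and from 131 over 150 to 159 TPM with LacZ. The groups did not overlap, though the lowest HuR KD and the highest LacZ livers lay close together, and the log2 fold change was 0.25 (SE 0.07, unadjusted p = 0.00457, adjusted p = 0.115).

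Pabpc1 had the largest log2 fold change of the 10, 0.49 (SE 0.11, unadjusted p = 0.000662, adjusted p = 0.0545). It ran from 42.0 over 55.8 to 72.4 TPM with HuR KD and from 35.3 over 40.0 to 44.5 TPM with LacZ. HuR KD replicate 3 alone lay within the range of the controls.

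Eif3e ran from 22.5 over 39.2 to 44.2 TPM with HuR KD and from 30.0 over 34.2 to 36.7 TPM with LacZ. The low value was that of HuR KD replicate 6, below all controls, while the other 5 HuR KD livers lay above all controls. The log2 fold change was 0.10 (SE 0.13, unadjusted p = 0.465, adjusted p = 0.769) with all livers and 0.23 (unadjusted p = 0.00168, adjusted p = 0.0573) without that liver.

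Eif3f ran from 56.1 over 60.4 to 92.6 TPM with HuR KD and from 51.3 over 56.7 to 62.8 TPM with LacZ. Its highest value was again that of HuR KD replicate 6, and the groups overlapped. Its log2 fold change was 0.20 (SE 0.11, unadjusted p = 0.0916, adjusted p = 0.410), and 0.10 without that liver.

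Tpt1 ran from 173 over 184 to 197 TPM with HuR KD and from 147 over 152 to 185 TPM with LacZ. LacZ replicate 4 stood within the HuR KD range and the other 5 controls lay below it. The log2 fold change was 0.23 (SE 0.07, unadjusted p = 0.00345, adjusted p = 0.106).

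The shallowest library of each WT group stood at the same edge of its group for 4 of 10 genes. HuR KD replicate 6 and LacZ replicate 2 were the highest of their groups for Eef2 and Eif3f and the lowest for Eif3e and Eef1g. For Eef1b2 they stood at opposite edges, lowest with HuR KD and highest with LacZ, and LacZ replicate 2 was also the highest control for Eef1a1 and the lowest for Tpt1. Without both, a choice made after their values were seen, 10 of 10 genes were called higher and 6 of 10 also passed after adjustment. Eif3e was then at 0.20 (adjusted p = 0.0408), Eef2 at 0.22 (adjusted p = 0.0377) and Eif3f at 0.13 (adjusted p = 0.182). Over the 15082 genes of that comparison, 3499 (23.2%) were called, 2323 of them higher, and 762 passed after adjustment in either direction.

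The RPL and RPS genes of the WT livers had a median log2 fold change of 0.21, with 74 of 77 above 0. Of these, 44 of 77 rose at an unadjusted p under 0.05, 10 also after adjustment, and 18 had HuR KD livers all above all controls. The count of 44 was 40 under median-of-ratios factors, 39 under quantile scaling and 32 to 66 when a liver was left out. The ribosomal protein genes ranged from Rpl24 at −0.20 (unadjusted p = 0.544) to Rps16 at 0.47 (adjusted p = 0.00297). The 10 TOP mRNAs outside the ribosome, from 0.10 to 0.49, had Pabpc1 slightly above this range and the other 9 inside it.

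**Figure D2:**
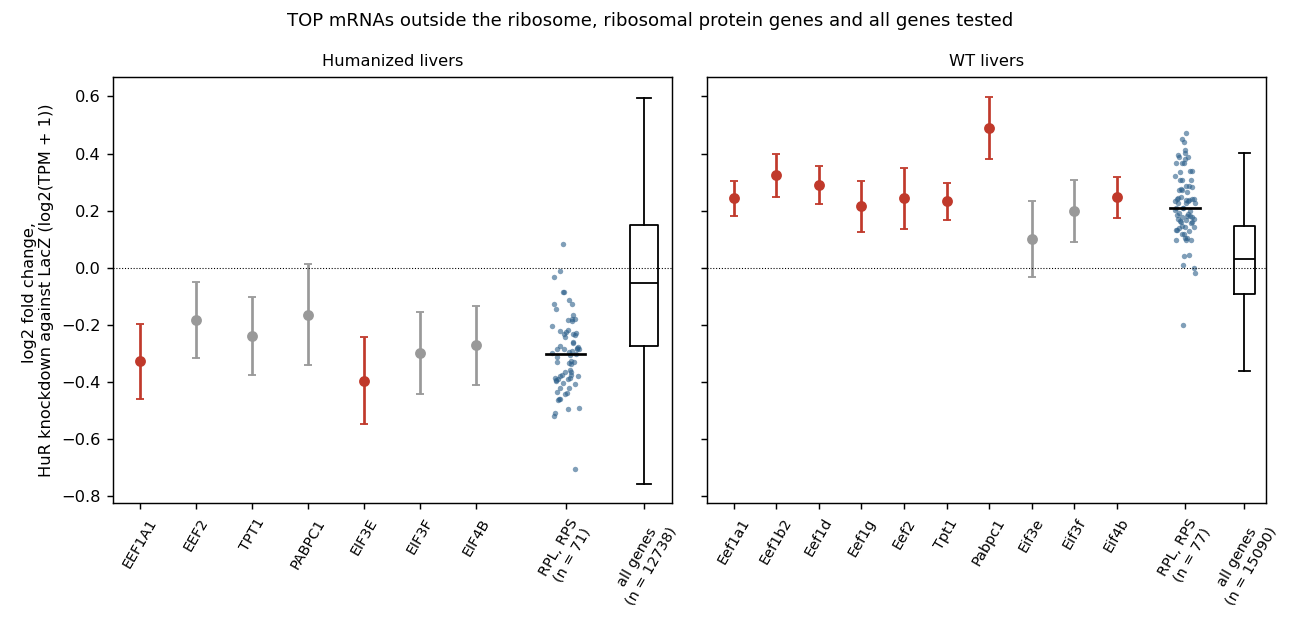
Log2 fold change of HuR KD against LacZ on the log2(TPM + 1) scale, with SE bars, for the tested genes (red where the unadjusted p was under 0.05, grey otherwise), each RPL or RPS gene (blue points, black bar at the median) and all genes tested (box with quartiles and median, whiskers at the 5th and 95th percentiles). The 7 human genes lie between −0.40 and −0.16 and the 10 mouse genes between 0.10 and 0.49, around the ribosomal protein medians of −0.30 and 0.21.

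Other translation factors, which are not among the 10 genes, had medians nearer to 0. In humanized livers their median was −0.15, within a range from −0.69 (EEF1A2) to 0.69 (EIF5A). There, 3 of 42 fell while 0 rose, where 7.87% of all genes tested were called lower. These were EIF4A2, a helicase of the cap-binding complex, at −0.57 (unadjusted p = 0.0159), EIF3D at −0.52 (unadjusted p = 0.0144) and EIF2B2 at −0.45 (unadjusted p = 0.0369). In WT livers the median was 0.09, within a range from −0.31 (Pabpn1) to 0.28 (Eif2s3x). There, 10 of 43 were called higher and 1 lower, where 9.09% of all genes tested were called higher. Those with the smallest p were Eif2b5 at 0.23 (unadjusted p = 0.00249), and Eif5a at 0.28 and Eif4h at 0.16 (unadjusted p = 0.00362 for each). Eif4a2 fell, at −0.15 (unadjusted p = 0.0474). None of these factors passed after adjustment in either set.

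Genes of the pathway that controls TOP mRNAs (mTORC1 with its regulators and substrates, and RNA-binding proteins such as LARP1) had medians near those of all genes, −0.06 in humanized and 0.08 in WT livers. In humanized livers 1 of 19 rose, RPS6KB2, a kinase downstream of mTORC1, at 0.43 (unadjusted p = 0.0397). There, 1 of 19 fell, SSB, the La protein, at −0.46 (unadjusted p = 0.0406). In WT livers 3 of 19 rose, namely Rptor, the substrate-binding subunit of mTORC1, at 0.30 (unadjusted p = 0.00261), its subunit Mlst8 at 0.30 (unadjusted p = 0.00902) and Larp4b at 0.19 (unadjusted p = 0.0273). Rheb, the small GTPase that activates mTORC1, fell by 0.34 (unadjusted p = 0.000852, adjusted p = 0.0606). None of the 19 passed after adjustment in either set. Over all genes tested, 458 of 12738 were called higher and 1003 lower in humanized livers. In WT livers 1371 of 15090 were called higher and 1047 lower. With 19 genes, counts this small are not read as a result about the pathway.

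Whether the 10 genes moved apart from the ribosomal protein genes was examined by subtracting, in each liver, the mean log2(TPM + 1) of the RPL and RPS genes from every gene. In humanized livers 0 of 7 then passed an unadjusted p under 0.05, where 21.0% of all genes did (19.1% higher). The relative log2 fold changes were −0.02 for EEF1A1, 0.12 for EEF2, 0.07 for TPT1, 0.14 for PABPC1, −0.09 for EIF3E, 0.01 for EIF3F and 0.03 for EIF4B. Their SE ranged from 0.11 to 0.15, so differences of that size from the ribosomal protein genes were not detectable. Of the other translation factors, 10 of 42 were higher relative to the ribosomal protein genes.

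In WT livers 1 of 10 passed, where 36.7% of all genes did (36.2% lower and 0.497% higher). This was Pabpc1, which rose relative to the ribosomal protein genes by 0.27 (SE 0.12, unadjusted p = 0.0359, adjusted p = 0.110). Its call was lost without HuR KD replicate 1 (0.20), 2 (0.26), 5 (0.28) or 6 (0.23) or LacZ replicate 2 (0.24), 5 (0.27) or 6 (0.23). The other 9 lay between −0.12 for Eif3e and 0.11 for Eef1b2. Eef1b2 was called without HuR KD replicate 6 (0.11) or LacZ replicate 2 (0.13), and Eif3f without HuR KD replicate 6 (−0.17, adjusted p = 0.0415). Of the other translation factors, 12 of 43 were lower relative to the ribosomal protein genes.

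The mean of the tested genes lay near that of the RPL and RPS genes in most livers, each gene first centred on its mean over the set. Part of this likeness is the difference between HuR KD and LacZ. Among the controls of either set the scores did not rank the livers alike. In humanized livers the mean of the 7 genes was −0.21, −0.28, 0.01 and −0.05 in HuR KD replicates 1 to 4 and 0.05, 0.04, 0.16 and 0.28 in LacZ replicates 1 to 4. The ribosomal protein means were −0.32, −0.29, 0.01 and 0.00 with HuR KD and 0.05, 0.21, 0.15 and 0.20 with LacZ. Both scores were thus lowest in HuR KD replicates 1 and 2 and near the controls in replicates 3 and 4. The largest gap, −0.16, was that of LacZ replicate 2.

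In WT livers the score of the 10 genes ran from 0.02 to 0.26 with HuR KD and from −0.18 to −0.10 with LacZ, without overlap. The ribosomal protein score ran from 0.07 to 0.30 in HuR KD replicates 1 to 5 and from −0.14 to −0.08 in the controls. HuR KD replicate 6 departed from this, with the 10 genes at 0.06 and the ribosomal protein genes at −0.12, inside the range of the controls. The gap of 0.18 in that liver was the largest of the 12, beside −0.05 to 0.04 in the others.

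**Figure D3:**
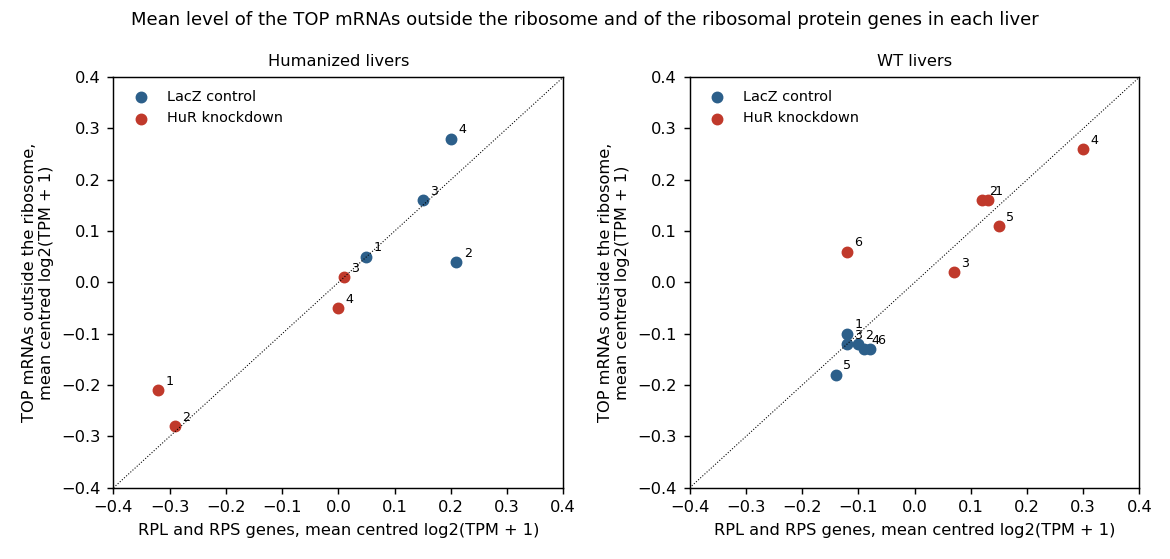
Mean centred log2(TPM + 1) of the tested genes (vertical axis) against that of the RPL and RPS genes (horizontal axis) in each liver, numbered by replicate, with LacZ livers in blue, HuR KD livers in red and a dotted line where both are equal. Most livers lie within 0.05 of the line, and WT HuR KD replicate 6 (0.06 against −0.12) and humanized LacZ replicate 2 (0.04 against 0.21) lie farthest from it.

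Genes whose profile over the livers lay nearest to the mean of these mRNAs were found by root mean square distance on the centred log2 scale. Over the 8 humanized livers they were KPNB1, a nuclear import receptor, ITPRID2, TRIP12, CTSL, the lysosomal protease cathepsin L, and DDX21, a nucleolar helicase, at distances of 0.0394 to 0.0554. Over the 12 WT livers they were Rps13, Rpl7, Wdr83os, Parp1 and Cyp4f13, at 0.0530 to 0.0557. RPL and RPS genes were 4 of the nearest 50 genes in humanized livers and 7 of the nearest 50 in WT livers, beside 0.558% and 0.511% of all genes outside the 10. All these livers carry the difference between HuR KD and LacZ, so the likeness is a description.

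Humanized and WT livers were compared through the difference of their log2 fold changes, in a joint limma fit over 8202 pairs of genes with the same symbol. For all 7 pairs the human value lay below the mouse value, by −0.65 to −0.43 with a median of −0.50, beside a median of −0.09 over all pairs. After adjustment 3 of 7 pairs passed, where 5.01% of all pairs did (3.74% with the human value lower). For the 70 pairs of RPL and RPS genes the median was −0.52, and 28 of 70 passed after adjustment. The count of 28 was 17 to 44 when a liver was left out.

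EEF1A1 differed by −0.57 (SE 0.13, adjusted p = 0.0130), EIF4B by −0.52 (SE 0.14, adjusted p = 0.0363) and TPT1 by −0.47 (SE 0.14, adjusted p = 0.0484). The joint fit shares an estimate of the spread between humanized and WT livers. Fitted apart, the SE was 0.13 in humanized and 0.06 in WT livers for EEF1A1, and 0.14 and 0.07 for both EIF4B and TPT1. The joint SE can thus be too small for the humanized part, which was not tested. PABPC1 had the largest difference, −0.65 (SE 0.20, adjusted p = 0.0564), and missed the threshold. EIF3F at −0.50 (adjusted p = 0.101), EEF2 at −0.43 (adjusted p = 0.160) and EIF3E at −0.50 (adjusted p = 0.170) missed it by more. At an unadjusted p under 0.05, 7 of 7 passed, where 19.7% of all pairs did. ELAVL1 itself differed by 0.24 (SE 0.17, adjusted p = 0.477).

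The call of EEF1A1 held without any single liver, from −0.64 to −0.52, but was lost under quantile scaling, at −0.37 (adjusted p = 0.182). That of TPT1 was lost in 15 of 20 comparisons without a single liver (−0.49 to −0.42, adjusted p from 0.0517 to 0.109) and held only without humanized HuR KD replicate 3 or 4, humanized LacZ replicate 1, WT HuR KD replicate 6 or WT LacZ replicate 4. It was also lost under median-of-ratios factors (−0.38, adjusted p = 0.0959) and quantile scaling (−0.37, adjusted p = 0.0889), with TPM over nuclear protein-coding genes (−0.39, adjusted p = 0.133) and with array weights (−0.48, adjusted p = 0.0839). That of EIF4B was lost in 11 of 20 (−0.53 to −0.43, adjusted p from 0.0525 to 0.0842), namely without humanized HuR KD replicate 2, humanized LacZ replicate 1, 3 or 4, WT HuR KD replicate 1, 2, 4 or 5, or WT LacZ replicate 3, 4 or 5. PABPC1 was called without humanized HuR KD replicate 3 (−0.72) or 4 (−0.72), humanized LacZ replicate 2 (−0.70) or WT HuR KD replicate 3 (−0.73), and EIF3E without WT HuR KD replicate 6 (−0.63) or with array weights (−0.64). PABPC1 was also called with the filter raised to a mean of 5 TPM (−0.65, adjusted p = 0.0451), under median-of-ratios factors (−0.56, adjusted p = 0.0447) and under quantile scaling (−0.59, adjusted p = 0.0383). Of all pairs called, 25.3% had the human value higher, against 43.2% under median-of-ratios factors and 40.9% under quantile scaling. All 7 differences stayed below 0 under both, with medians of −0.41 and −0.42.

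**Figure D4:**
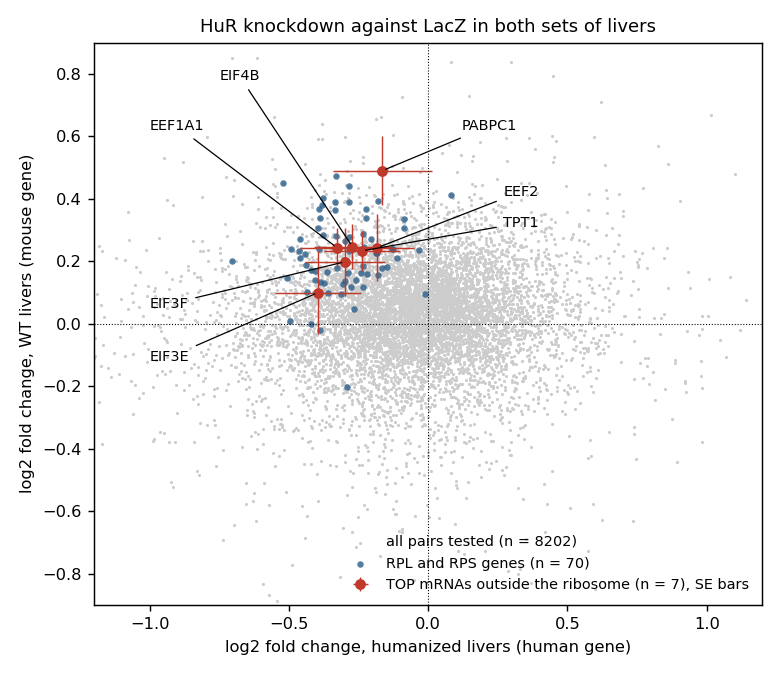
Log2 fold change of HuR KD against LacZ in WT livers (vertical axis) against that in humanized livers (horizontal axis) for the 8202 pairs tested (grey), the 70 RPL and RPS pairs (blue) and the 7 tested TOP mRNAs outside the ribosome (red, SE bars in both directions). The 7 red points lie at the upper left, below 0 in humanized and above 0 in WT livers, and 64 grey pairs lie outside the axes.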

How the data were processed

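Total RNA of 20 livers was sequenced with stranded, paired-end libraries. The authors trimmed reads, aligned them with HISAT2 (a combined human and mouse index for humanized livers), counted them per gene with featureCounts and deposited TPM, 1 column per liver, whose gene lengths are not stated in the sources used here. GENCODE v32 and M23 were the annotations, and Trim Galore is named in the labels. Values were compared as log2(TPM + 1), for genes whose mean over the livers of a table reached 1 TPM, with limma 3.58.1 in R 4.3.3 (lmFit, eBayes with trend), each table apart, and the species by knockdown difference was fitted jointly over pairs with the same symbol. A gene was called at an unadjusted p under 0.05, the threshold of the study, and the joint fit at an adjusted p (Benjamini-Hochberg) under 0.05. For the relative comparison the mean of the RPL and RPS genes of a liver was subtracted from all genes.

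The TPM are not counts, so the DESeq2 comparison of the study was not repeated. Whole reads were recovered from TPM steps for 18702 human and 25110 mouse genes (100% of those with a TPM above 0 in at least 4 livers), which gave the depth and a voom alternative. The tested genes rested on 85 to 138608 reads per liver, which sets the precision of their TPM. Nothing in the labels ties replicates to cultures or litters, each being a separate liver, and no pair agreed within counting noise (the smallest mean chi-square per gene was 4.53). The correlations of same-numbered deviations ranged from −0.249 to 0.206, so livers were not paired by number in the main fit. The same number was still the best partner for humanized replicate 1 and WT replicates 1 and 5. The highest correlation between groups, 0.532, was that of humanized HuR KD replicate 4 with LacZ replicate 2, the deepest libraries of that set. In WT livers the highest, 0.321, was that of HuR KD replicate 3 with LacZ replicate 4. A shared batch was not tested. As a test on simulated data, 200 genes were moved by 1.5 log2 units. The fit called 94% of them among 12738 genes in the humanized design and 99% among 15090 genes in the WT design, and it called 4.62% and 5.13% of unchanged genes. The genes reported here changed far less, by −0.40 to −0.16 in humanized livers and 0.10 to 0.49 in WT livers. Recovery at such sizes was not simulated, so these shares do not apply to them. Tables and figures were made with Python 3.11.15, numpy 2.4.6, pandas 2.3.3 and matplotlib 3.10.9.

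The genes and lists were chosen with earlier results of these data known. Named genes were the 10 members, ELAVL1, the 3 called genes with the smallest p per direction in each other list, the highest and lowest RPL or RPS gene, the 5 nearest profiles, and processed pseudogenes of the members. Alternatives were a pseudocount of 0.1, another minimum (none, or 5 TPM), scaling by median-of-ratios factors, quantiles or nuclear protein-coding genes, eBayes with no trend, a replicate block, leaving out each liver and the other p threshold. Voom, array weights and leaving out 2 livers at once were added after seeing the data.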

Additional observations from a re-analysis of the deposited data

Results flagged for a closer look

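A single liver stood far from the rest of its group in 5 of 34 combinations of a gene and a group of 4 or 6 livers. The measure was the gap to its nearest neighbour as a share of the group's range. Chance alone gives such a liver in about 1 of 20 independent groups. The 34 combinations reuse the same 20 livers, so their count cannot be weighed against that rate. In WT HuR KD livers, Eef1a1 was highest in replicate 4 (gap 0.797 of the range, 3654 TPM), Eef2 in replicate 6 (0.706, 1577 TPM) and Eif3f in replicate 6 (0.736, 92.6 TPM), and Eif3e was lowest in replicate 6 (0.725, 22.5 TPM). In WT LacZ livers, Eef2 was highest in replicate 2 (0.921, 1245 TPM). HuR KD replicate 6 and LacZ replicate 2 account for 4 of the 5, and they are the shallowest libraries of their groups, at 12960373 and 1423985 reads. The part of depth in these values was not tested.

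The knockdown effect differed between humanized and WT livers past the adjusted threshold of the joint limma fit for 3 of 7 pairs. The human minus mouse log2 fold change was −0.57 for EEF1A1 (adjusted p = 0.0130), −0.52 for EIF4B (adjusted p = 0.0363) and −0.47 for TPT1 (adjusted p = 0.0484). In 4 of 4 humanized HuR KD livers EEF1A1 lay below the control mean of 704 TPM, and in 6 of 6 WT HuR KD livers Eef1a1 lay above the control mean of 2799 TPM. Species, host, shRNA and table cannot be told apart in this difference.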

How the results depend on the processing

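The 7 human genes stayed below 0 and the 10 mouse genes above 0 under every alternative of the comparison of HuR KD with LacZ (not of that relative to ribosomal protein genes, where values lay on either side of 0), and no called value changed sign. Among human genes tested only under other settings, 1 lay above 0 with no filter on TPM (0.21) and 1 with nuclear protein-coding scaling (0.36). Of the values for single genes, 807 kept their side of the threshold, 76 lost the call and 26 gained it. In humanized livers 931 genes were called at a mean TPM of at least 5, where fewer genes were tested, and 27 after adjustment, against 1461. Of the 7 genes, 2 were called, against 1 under quantile scaling, nuclear protein-coding scaling (8 genes tested there) or voom, 0 after adjustment and 0 to 3 when a liver was left out. In WT livers 2418 genes were called, against 4205 with array weights and 134 after adjustment, which left 0 of the 10 genes. Under 6 alternatives that keep all livers, 2 to 8 of the 10 passed after adjustment, beside 221 to 1717 of all genes tested. In the joint fit 411 pairs and 3 of 7 genes passed. These were 1618 and 7 without adjustment, 283 to 835 and 1 to 4 when a liver was left out, and 967 pairs without both humanized HuR KD replicate 4 and LacZ replicate 2. Pairs rose from 411 to 630 without humanized HuR KD replicate 4 and to 835 without humanized LacZ replicate 2. Relative to ribosomal protein genes, 2673 human and 5536 mouse genes were called, against 10467 and 15692 with no filter and 78 and 3051 after adjustment. Of the 10 genes, 1 was called there, against 2 with array weights or without both WT HuR KD replicate 6 and LacZ replicate 2, 0 after adjustment and 0 to 2 when a liver was left out. Where no construction of the alternative shows it, the cause was not tested.

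With the replicate block, 1 of 7 human genes and 1 of 7 pairs were called, and EEF1A1 in humanized livers (−0.33, unadjusted p = 0.0515) and EIF4B (−0.52, adjusted p = 0.0670) and TPT1 (−0.47, adjusted p = 0.0723) in the joint fit lost their calls. In WT livers 6 of 10 were called. The labels link same-numbered livers by the number alone. Because both groups of a set hold the same replicate numbers, the log2 fold changes are the same with and without the block by construction. That sameness is therefore not a result. Only the estimated spread and its degrees of freedom can differ. Leaving out a liver leaves at least 3 per group. The human EEF1B2 and EEF1D had 0 to 37 reads and EEF1G is listed at 0, and the cause was not tested.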
